A study of Mus musculus with 31 samples.

Results

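The 31 genes described here mark neutrophils, monocytes and macrophages, white blood cells whose RNA can enter a sort of brain cells. They were chosen by gene symbol, as 15 genes typical of neutrophils, 9 of monocytes, 2 leukocyte integrins and 5 of macrophages, out of 55401 genes in the deposited tables. A symbol matched 30 of them. The symbol Vcan2 matched no gene, and Vcan, a proteoglycan gene that is not one of the 31, is not taken in its place. RNA was sequenced from astrocytes sorted from the brains of female C57Bl/6 mice aged 10 weeks, in 12 libraries with 3 for each of 4 labels. The titles of all 12 carry the mark SPF, the usual abbreviation for specific pathogen free housing. The cytokine libraries come from mice injected in the ventricles with 2 inflammatory cytokines, IL-1β (100 ng/mL) together with TNF-α (50 ng/mL), and the PBS libraries from mice given PBS, with 5 µL an injection. Mice of the 1X groups were injected on day 7 only, and those of the 2X groups were injected earlier and once more on day 7. Cells were sorted 18 to 24 hours after the last injection. One short label names TNF-α alone where the protocol names both cytokines. The sources used here name neither the sort's surface markers nor how many mice went into a library. The 19 ATAC-seq samples of the series are not analysed here.

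Neutrophils leave the bone marrow with granules filled with proteins made early in their life, then follow chemokine gradients into inflamed tissue, where they secrete IL-1β and the calcium-binding pair S100A8 and S100A9. Classical monocytes leave the blood through the chemokine receptor CCR2 and can turn into macrophages. The healthy brain holds microglia in the tissue and macrophages along its borders, while neutrophils and monocytes are mostly kept in the blood, the skull marrow and the meninges. IL-1β and TNF-α are among the signals that call both cell types into the brain.

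The promoters of 4 of the genes are shown as examples of each motif searched: S100a8 and Csf3r, which follow most of the list below, and the granule genes Ngp and Ltf, which do not. RefSeq promoters on GRCm38.p6 were found for 27 of the 30 matched genes (not Mmp9, Itgal and Msr1), as 31 promoters of 250 bases before and 50 bases after the start of transcription. They were searched on both strands for GAGGAAG, a form of the site of PU.1, the factor of myeloid identity, and for TTGCNNAA, a form of the site of C/EBP factors, which drive granule genes. GAGGAAG stood in 10 of the 31 promoters (32.3%) and in 13.6% of all 32851, and TTGCNNAA in 8 of 31 (25.8%) and in 10.8%. The 250 bases before each start follow, on the plus strand, with matches in capitals. These matches are letters in a window and show no binding, and the motifs do not sort the members by their pattern. The promoter of the granule gene Camp held neither, and those of S100a9, Clec4e and Plac8, which follow most of the list, held TTGCNNAA and not GAGGAAG.
S100a8, chr3:90668821-90669070: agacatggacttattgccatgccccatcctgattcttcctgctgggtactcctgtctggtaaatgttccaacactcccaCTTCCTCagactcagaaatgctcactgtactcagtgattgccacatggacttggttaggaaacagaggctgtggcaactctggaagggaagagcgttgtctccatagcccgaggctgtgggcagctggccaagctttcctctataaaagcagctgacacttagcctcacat
Csf3r, chr4:126024409-126024658: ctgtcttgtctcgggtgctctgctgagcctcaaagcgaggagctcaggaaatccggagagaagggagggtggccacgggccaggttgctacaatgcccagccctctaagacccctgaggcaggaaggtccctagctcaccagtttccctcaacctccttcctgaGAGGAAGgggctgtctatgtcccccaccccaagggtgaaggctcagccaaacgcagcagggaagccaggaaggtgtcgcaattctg
Ngp, chr9:110419558-110419807: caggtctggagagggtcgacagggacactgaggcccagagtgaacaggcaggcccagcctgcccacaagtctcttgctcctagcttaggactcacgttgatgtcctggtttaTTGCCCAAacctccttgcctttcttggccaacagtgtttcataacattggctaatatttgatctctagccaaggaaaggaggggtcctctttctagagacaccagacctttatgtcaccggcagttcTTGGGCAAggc
Ltf, chr9:111019042-111019291: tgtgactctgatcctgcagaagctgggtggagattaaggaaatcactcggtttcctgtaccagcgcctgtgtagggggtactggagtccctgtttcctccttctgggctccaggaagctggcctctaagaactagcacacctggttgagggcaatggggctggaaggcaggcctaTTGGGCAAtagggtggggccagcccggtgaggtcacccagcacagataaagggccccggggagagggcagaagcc
The capitals mark GAGGAAG, read on the minus strand in S100a8 and on the plus strand in Csf3r, and TTGCNNAA in Ngp and Ltf. Counted from the start of transcription, the match begins at base -171 in S100a8, at -86 in Csf3r, at -138 and -11 in Ngp and at -75 in Ltf. Spi1, which encodes PU.1, had 0 to 26.0 CPM over the 12 libraries, and Cebpe, the C/EBP factor of granule genes, had 1 count in the library labelled 1X cytokine replicate 1 and 0 in the other 11.

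Library totals ran from 1878131 to 5521300 counts. Levels are CPM, counts scaled to a common library size after TMM, on which 3 counts correspond to 0.528 to 1.65 CPM. Within the 1X labels 1 library of each stands apart from the other two. Lcn2, an acute-phase gene that reactive astrocytes and neutrophils both express, had 5.33, 1076 and 776 CPM in the 1X PBS libraries, 797, 11.5 and 3.85 in 1X cytokine, 570.2, 363 and 425 in 2X PBS and 15.0, 2.26 and 1.20 in 2X cytokine. The astrocyte genes, 12 in number and led by Aldh1l1, Slc1a3 and Aqp4, summed to 29499, 8537 and 8095 CPM in the 1X PBS libraries, 11627, 22811 and 25658 in 1X cytokine, 21177, 21334 and 23466 in 2X PBS and 26704, 22702 and 23027 in 2X cytokine. The library labelled 1X PBS replicate 1 and the library labelled 1X cytokine replicate 1 therefore each lie near the libraries of the other 1X label, and results that rest on them are given with and without both. In 2X, Lcn2 was lower in every cytokine library than in any PBS library. Whether the labels match the treatment given was not tested, in 1X or in 2X.

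The white blood cell genes were found in every library, at levels that differed by more than 10-fold between libraries. The 15 neutrophil genes summed to 63.2, 2599 and 2865 CPM in the 1X PBS libraries, 1160.3, 56.4 and 64.4 in 1X cytokine, 791, 623 and 587 in 2X PBS and 238, 109 and 62.2 in 2X cytokine. The 8 matched monocyte genes summed to 28.1, 1504 and 1354 CPM under the label 1X PBS, to 345, 30.0 and 26.8 under 1X cytokine, to 368, 387 and 374 under 2X PBS and to 79.1, 30.7 and 8.29 under 2X cytokine. The 6 libraries with the higher sums are 1X PBS replicates 2 and 3, 1X cytokine replicate 1 and all 3 of 2X PBS. The same 6 were the highest for 20 of the 30 matched genes, all 20 among the 27 tested, and for 5.26% of the 14490 genes tested. These 6 were singled out by the members' own values, as the set most common among them. The count of members is therefore not independent of that choice, while the share of all genes was not used in it. The 10 genes with another order were Ngp, Camp, Ltf, Mmp8, Retnlg, Ly6c2, Chil3, Ms4a7, Mrc1 and Pf4. In bulk RNA, fewer cells of a type and less RNA per cell cannot be told apart.

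**Figure D1:**
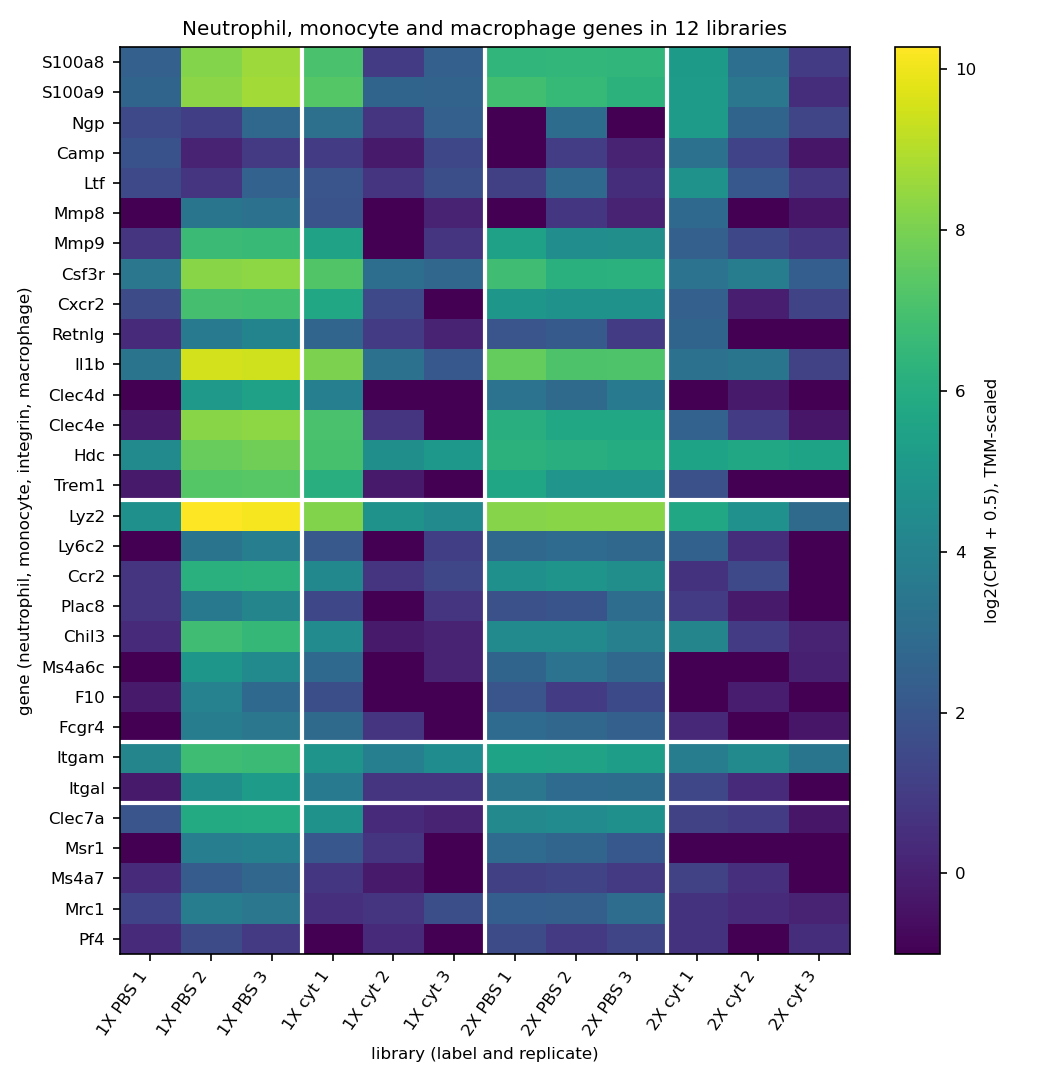
Heat map of the 30 matched genes (rows, in the order neutrophil, monocyte, integrin, macrophage, with white lines between sets) in the 12 libraries (columns, with white lines between labels; cyt stands for cytokine). Colour is log2(CPM + 0.5), and most rows are bright in the same 6 libraries, while Ngp, Camp and Ltf are brightest in 2X cytokine replicate 1.

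In the 2X groups, where the 3 libraries of each label lay together, the sums did not overlap. They were lower under cytokine, although IL-1β and TNF-α are among the signals that call neutrophils and monocytes into the brain. The cause was not tested. Neutrophil genes summed to 667 ± 109 CPM in the 2X PBS libraries and 136 ± 90.8 in those of 2X cytokine (SD, n = 3 each). Of the 2X cytokine sums of 238, 109 and 62.2 CPM, Hdc alone gave 45.7, 52.0 and 45.9. Ngp, Camp and Ltf together gave 72.1, 11.3 and 3.60, so that much of these sums came from few genes. The monocyte genes had 376 ± 9.78 and 39.4 ± 36.2, and the 5 macrophage genes 36.8 ± 2.48 and 3.59 ± 1.99. In the 1X groups the sums overlapped. The neutrophil sum was 1843 ± 1547 in 1X PBS and 427 ± 635 in 1X cytokine, the monocyte sum 962 ± 812 and 134 ± 183, and the macrophage sum 64.0 ± 49.5 and 13.2 ± 16.3.

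**Figure D2:**
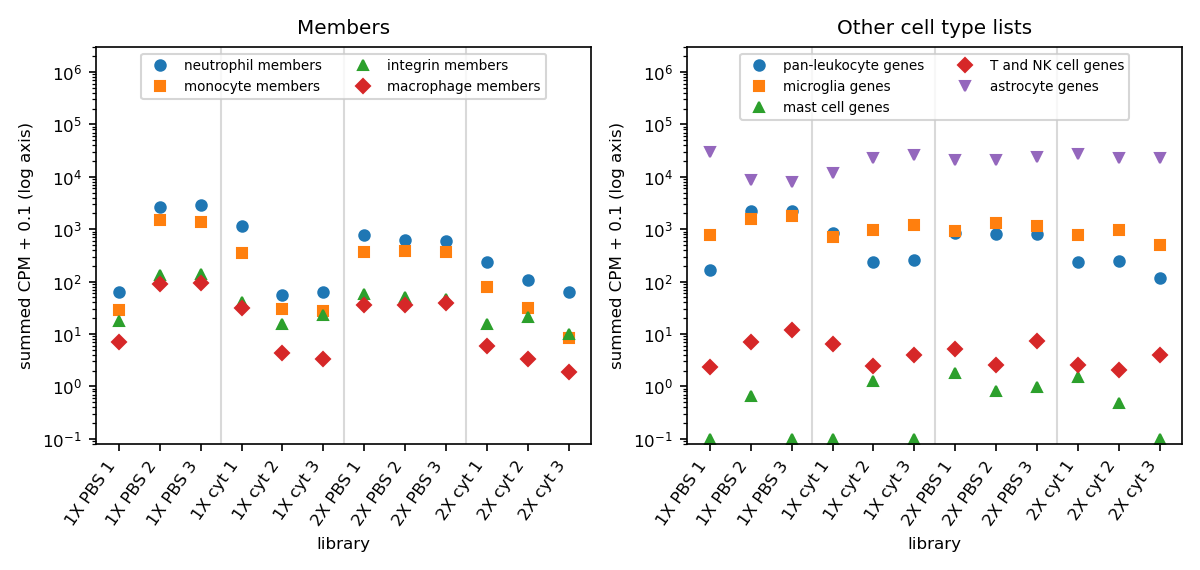
Summed CPM + 0.1 on a log axis for each of the 12 libraries (cyt stands for cytokine), for the 4 sets described here (left) and for 5 lists of other cell types (right). The neutrophil sum lies between 587 and 791 CPM in 2X PBS and between 62.2 and 238 in 2X cytokine, and mast cell and T and NK cell genes stay below 12 CPM in every library.

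Genes were tested by edgeR's quasi-likelihood test with Benjamini-Hochberg adjustment over all genes tested, and called at an adjusted p under 0.05. With all 12 libraries in one fit, 0 of 27 members tested were called for 2X cytokine against 2X PBS, where 0.0345% of all genes were called. For 1X cytokine against 1X PBS 0 of 27 were called, against 0.0% of all genes. At an unadjusted p under 0.05 there were 18 of 27 members in 2X and 8 in 1X, where all genes gave 1403 and 782 of 14490. DESeq2 called 1 and 0 of 30 members, against 0.256% and 0.0089% of all genes. The members' median log2 fold changes were -3.27 and -2.07, and the medians over all genes -0.0035 and -0.011. No overlap between the groups, with cytokine lower, was seen for 22 of 27 members in 2X, against 14.1% of all genes, and for 0 of 27 in 1X, against 3.3%.

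The 6 libraries of the 2X groups were also fitted alone, with their own estimate of the spread. That fit called 19 of 24 members, all lower in 2X cytokine, where 5.31% of all genes were called lower. The 5 not called were Ly6c2, Retnlg, Ngp, Ltf and Chil3. Leaving out each of the 6 libraries in turn, a setting chosen after seeing the data, gave between 18 and 23 calls, all lower in 2X cytokine. In these fits 3.51 to 4.79% of all genes were called lower. Without 2X cytokine replicate 1 the calls were 23 of 25, against 4.41% of all genes. The 6 libraries of the 1X groups fitted alone gave 0 calls among 23 members, against 0% of all genes. The filter on low counts can pass a gene through the group in which it is high, so these counts describe the genes that passed it and not all 31. With both 1X replicate 1 libraries left out, 26 of 28 members passed the threshold as lower in 1X cytokine, against 11.5% of all genes, with 2 libraries a group. Ngp and Ltf did not. The libraries left out are those whose levels go against the other 2 of their label, for these genes too, so that this choice is not independent of the outcome. Values for 1X without them are therefore a description and no test, and the test of 1X is that with all 12. In that fit of 10 libraries 21 of 28 members were called lower in 2X cytokine, against 5.16% of all genes. The values below come from the 6 libraries of 2X and, where so stated for 1X, from the fit of 10 libraries, without a p. In edgeR's fit of all 12, the members' adjusted p ran from 0.306 to 0.922 in 2X and from 0.866 to 0.986 in 1X. That fit was the main test and the fit of 6 an alternative to it. The 2X p from 6 libraries and the 1X p from 12 rest on different estimates of the spread. They are not to be compared with each other.

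**Figure D3:**
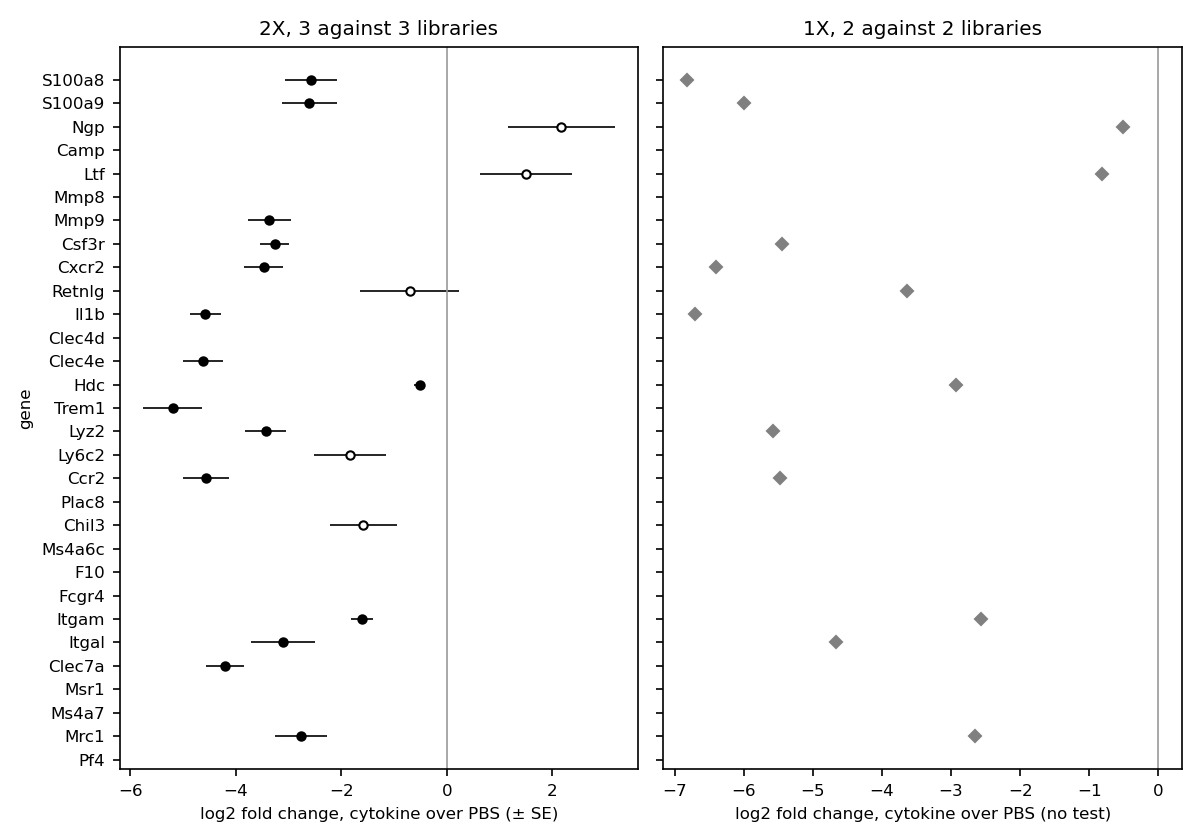
Log2 fold change of cytokine over PBS for each gene in the 2X comparison (left, 6 libraries) and in the 1X comparison without both replicate 1 libraries (right, from the fit of 10, as a description with no test and no error bars). On the left, bars are the standard error, filled points passed an adjusted p under 0.05 and open points did not, and on both sides genes without a point were not tested or had 3 counts or fewer over the cytokine libraries compared. Ngp and Ltf lie apart from the other genes, at 2.17 and 1.50 in 2X.

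S100a8 and S100a9 encode the subunits of calprotectin, the most abundant cytosolic protein of neutrophils, and lie near each other at chr3:90668978-90670035 and chr3:90692632-90695721 (GENCODE M21 on GRCm38). S100a8 had 4.94, 294 and 392 CPM in the 1X PBS libraries, 129, 1.54 and 4.94 in 1X cytokine, 85.1, 87.1 and 85.3 in 2X PBS and 34.6, 8.29 and 1.50 in 2X cytokine. S100a9 had 5.71, 316 and 419.8 CPM in the 1X PBS libraries, 158, 5.76 and 5.49 in 1X cytokine, 115, 94.0 and 74.9 in 2X PBS and 36.1, 10.5 and 0.900 in 2X cytokine. Both were lower in every 2X cytokine library than in any 2X PBS library, with log2 fold changes of -2.57 (SE 0.49, adjusted p = 0.00645) and -2.61 (SE 0.52, adjusted p = 0.00826) by edgeR. Within 2X cytokine, replicate 1 was above replicates 2 and 3. With all 12 libraries the 2X values were -2.55 (SE 1.46, adjusted p = 0.637) and -2.60 (SE 1.44, adjusted p = 0.627) by edgeR. In 1X the values were -2.28 (SE 1.34, adjusted p = 0.866) and -2.08 (SE 1.32, adjusted p = 0.866) by edgeR with all 12 libraries. Without both replicate 1 libraries they were -6.82 and -6.00, with no test. Per length, these 2 genes were the highest of the set in 2X PBS, at 429.5 ± 8.49 and 439 ± 103 TPM (SD, n = 3).

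Il1b, the gene of the cytokine IL-1β, which was also part of the injected mixture as protein, had 9.51, 729.5 and 707 CPM in the 1X PBS libraries, 265, 8.83 and 3.85 in 1X cytokine, 195, 141 and 142 in 2X PBS and 8.93, 9.80 and 1.80 in 2X cytokine. The groups did not overlap in 2X, and all 3 cytokine libraries were low. Its log2 fold change was -4.58 (SE 0.30, adjusted p = 1.98e-06) by edgeR in 2X. With all 12 libraries the 2X value was -4.57 (SE 1.61, adjusted p = 0.434) by edgeR. In 1X it was -2.35 (SE 1.34, adjusted p = 0.866) by edgeR with all 12 libraries, and -6.71 without both replicate 1 libraries, with no test. Il1r2, the decoy receptor that neutrophils carry for IL-1, had 1.14, 262 and 286 CPM in the 1X PBS libraries, 137, 2.30 and 1.10 in 1X cytokine, 93.6, 70.1 and 58.3 in 2X PBS and 3.21, 1.13 and 0.600 in 2X cytokine. It was high in the same 6 libraries as Il1b. Of the 9 genes of IL-1 signalling and of S100A8/A9 receptors, 8 passed the filter and were tested in the 6 libraries of 2X. Against 5.31% of all genes called lower there, 5 of the 8 were called, all lower in 2X cytokine. Among them Il1rn, the receptor antagonist, had 26.4, 15.6 and 14.2 CPM in the 2X PBS libraries and 3.72, 1.41 and 0.637 in those of 2X cytokine, and the receptor gene Il1r1 15.2, 18.0 and 14.8 against 8.21, 9.04 and 8.70.

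Receptors of neutrophils followed the same order of libraries. Csf3r, the receptor for the growth factor G-CSF that keeps neutrophils alive, had 10.6, 313 and 329 CPM in the 1X PBS libraries, 148, 7.93 and 6.19 in 1X cytokine, 114, 70.3 and 74.1 in 2X PBS and 9.41, 12.9 and 4.70 in 2X cytokine. Cxcr2, the receptor for the chemokines that draw neutrophils out of the marrow, had 2.44, 122 and 117 CPM in the 1X PBS libraries, 52.3, 2.33 and 0 in 1X cytokine, 31.1, 27.3 and 27.2 in 2X PBS and 5.01, 0.457 and 1.98 in 2X cytokine. The log2 fold changes in 2X were -3.26 (SE 0.27, adjusted p = 1.48e-05) for Csf3r and -3.47 (SE 0.37, adjusted p = 0.000105) for Cxcr2 by edgeR, and for both genes the groups were apart. Neither was called in edgeR's fit of all 12 libraries (adjusted p = 0.463 and 0.496). Trem1, which amplifies inflammatory signals in neutrophils and monocytes, had 0.380, 156 and 162 CPM in the 1X PBS libraries, 68.3, 0.384 and 0 in 1X cytokine, 49.5, 29.2 and 29.3 in 2X PBS and 3.01, 0 and 0 in 2X cytokine. Trem1 was at 0 in 2X cytokine replicates 2 and 3. Its log2 fold change in 2X was -5.20 (SE 0.56, adjusted p = 0.000106) by edgeR, with adjusted p = 0.470 in the fit of all 12.

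Clec4e and Clec4d are neighbours on chromosome 6 and encode the lectins Mincle and MCL, which bind mycobacterial glycolipids. Clec4e had 0.380, 307 and 333 CPM in the 1X PBS libraries, 132, 1.15 and 0 in 1X cytokine, 68.2, 54.0 and 52.1 in 2X PBS and 5.36, 1.51 and 0.300 in 2X cytokine. Clec4d was at 0 in 5 libraries and had 0, 119 and 189 counts in the 1X PBS libraries, 58, 0 and 0 in 1X cytokine, 22, 39 and 41 in 2X PBS and 0, 1 and 0 in 2X cytokine. Both were highest in 1X PBS replicate 3. Clec4e had a log2 fold change of -4.62 (SE 0.37, adjusted p = 1.17e-05) in 2X by edgeR, with adjusted p = 0.496 in the fit of all 12 libraries. For Clec4d, 102 counts in 2X PBS faced 1 count in 2X cytokine, a ratio of 78.5 with a counting interval of 13.8 to 3130.0 (exact, 95%, counting error only).

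Hdc, the enzyme that makes histamine, stayed well above the floor of 3 counts in every library. It had 19.8, 199.9 and 228 CPM in the 1X PBS libraries, 127, 24.2 and 31.9 in 1X cytokine, 75.0, 68.8 and 63.6 in 2X PBS and 45.7, 52.0 and 45.9 in 2X cytokine. The 2X groups did not overlap, with a log2 fold change of -0.52 (SE 0.11, adjusted p = 0.0138) by edgeR, the smallest in size of the 19 called. With all 12 libraries the 2X value was -0.53 (SE 0.72, adjusted p = 0.891) by edgeR. In 1X it was -1.26 (SE 0.71, adjusted p = 0.866) by edgeR with all 12 libraries, and -2.93 without both replicate 1 libraries, with no test. Mast cells are the classical source of Hdc, and their defining gene Cpa3 had 0 counts in all 12 libraries, Mcpt4 2 counts in 1 library and Tpsb2 at most 4. The 6 mast cell genes together summed to 0 to 1.69 CPM.

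Mmp9, a gelatinase stored in late granules, had 1.14, 104 and 96.0 CPM in the 1X PBS libraries, 44.2, 0 and 1.10 in 1X cytokine, 43.6, 22.9 and 23.1 in 2X PBS and 5.00, 2.26 and 1.20 in 2X cytokine. It followed the main pattern, with a log2 fold change of -3.37 (SE 0.41, adjusted p = 0.000278) by edgeR in 2X, and adjusted p = 0.502 in the fit of all 12 libraries. Mmp8, the neutrophil collagenase, was low everywhere and had 0, 36 and 39 counts in the 1X PBS libraries, 13, 0 and 1 in 1X cytokine, 0, 7 and 2 in 2X PBS and 19, 0 and 1 in 2X cytokine. Its 2X groups overlapped, and 2X cytokine replicate 1 was above all of 2X PBS. Retnlg, a resistin-like gene of mature neutrophils, had 2, 45 and 71 counts in the 1X PBS libraries, 24, 4 and 1 in 1X cytokine, 8, 23 and 5 in 2X PBS and 16, 0 and 0 in 2X cytokine, and was not called in 2X at a log2 fold change of -0.71 (SE 0.93, adjusted p = 0.741) by edgeR. In 2X cytokine its counts came from replicate 1 alone.

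Ngp, Camp and Ltf encode proteins of secondary granules, made while neutrophils mature in the marrow: neutrophilic granule protein, the antimicrobial peptide precursor cathelicidin, and lactoferrin. All 3 lie on chromosome 9, at chr9:110419747-110423012, chr9:109847379-109849617 and chr9:111019271-111042767. Ngp had 6, 6 and 27 counts in the 1X PBS libraries, 34, 3 and 9 in 1X cytokine, 0, 42 and 0 in 2X PBS and 104, 15 and 7 in 2X cytokine. Camp had 8, 2 and 6 counts in the 1X PBS libraries, 6, 1 and 4 in 1X cytokine, 0, 9 and 2 in 2X PBS and 25, 5 and 1 in 2X cytokine. Ltf had 6, 4 and 23 counts in the 1X PBS libraries, 14, 3 and 5 in 1X cytokine, 4, 38 and 3 in 2X PBS and 73, 10 and 4 in 2X cytokine. The highest library was 2X cytokine replicate 1 for each of the 3, where S100a8 and Csf3r lay below all of their 2X PBS values. In 2X the groups overlapped and the log2 fold changes were 2.17 (SE 1.01, adjusted p = 0.249) for Ngp and 1.50 (SE 0.87, adjusted p = 0.374) for Ltf by edgeR, and Camp did not pass the filter. Without 2X cytokine replicate 1 the value for Ltf turned to -0.54.

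As a share of the counts of these 3 genes plus S100a8 and S100a9, the granule genes took 0.542% (0.280 to 0.945) and 1.57% (1.19 to 2.04) in 1X PBS replicates 2 and 3, with exact 95% intervals for counting error only. The share was 4.42% (3.34 to 5.73) in 1X cytokine replicate 1 and 0.839% (0.229 to 2.13), 7.96% (6.44 to 9.71) and 0.916% (0.298 to 2.12) in 2X PBS. In 2X cytokine it was 50.5% (45.5 to 55.5), 37.5% (26.9 to 49.0) and 60.0% (36.1 to 80.9). In the remaining 3 libraries it was 41.7% (27.6 to 56.8), 26.9% (11.6 to 47.8) and 48.6% (31.9 to 65.6), on 26 to 48 counts each. S100a8 and S100a9 are most of the denominator in the 6 libraries with high sums, and these sums include them, so that a low share there follows from how those libraries were singled out. The summed CPM of the granule genes alone overlapped, at 1.48 to 15.7 in those 6 and 2.69 to 72.1 in the others. Genes of earlier granules had few counts. Mpo, myeloperoxidase of primary granules, had 0, 1 and 0 counts in the 1X PBS libraries, 0, 0 and 0 in 1X cytokine, 1, 0 and 17 in 2X PBS and 12, 0 and 1 in 2X cytokine, and Elane, neutrophil elastase, 4 counts in each of 2X PBS replicate 3 and 2X cytokine replicate 1 and 2 in 2X cytokine replicate 3. Hemoglobin genes and Alas2, a sign of red blood cells, summed to 3513, 2091 and 489 CPM in the 2X PBS libraries and 13011, 4897 and 2492 in those of 2X cytokine, highest within 2X cytokine in the same replicate 1, and to 5999.6, 15697 and 64764 and 7508, 924 and 2585 in 1X PBS and 1X cytokine. Their part in these results was not tested.

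**Figure D4:**
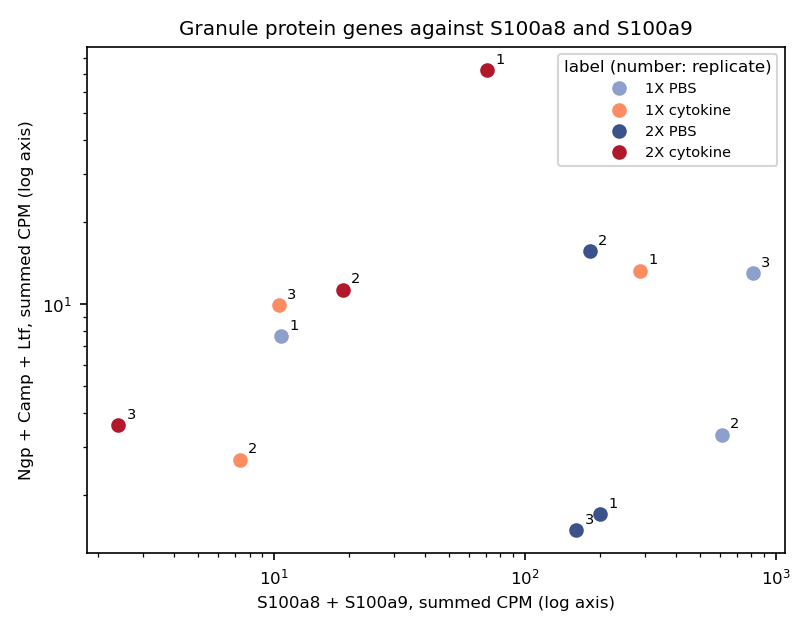
Summed CPM of Ngp, Camp and Ltf (vertical, log axis) against summed CPM of S100a8 and S100a9 (horizontal, log axis), 1 point a library, coloured by label and numbered by replicate. 2X cytokine replicate 1 has the highest granule sum, 72.1 CPM, at an S100a8 and S100a9 sum of 70.7 CPM.

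Among the monocyte genes, Lyz2, the lysozyme of monocytes, macrophages and neutrophils, was the highest, at 388 ± 7.89 TPM in 2X PBS (SD, n = 3). It had 24.7, 1241 and 1119.6 CPM in the 1X PBS libraries, 282, 27.3 and 20.9 in 1X cytokine, 297, 312 and 309 in 2X PBS and 53.9, 25.2 and 6.90 in 2X cytokine. The 2X groups did not overlap, with a log2 fold change of -3.44 (SE 0.38, adjusted p = 0.000148) by edgeR. With all 12 libraries the 2X value was -3.42 (SE 1.27, adjusted p = 0.444) by edgeR. In 1X it was -2.83 (SE 1.21, adjusted p = 0.866) by edgeR with all 12 libraries, and -5.57 without both replicate 1 libraries, with no test. Ccr2, the receptor through which monocytes leave the marrow, had 1.14, 69.9 and 76.1 CPM in the 1X PBS libraries, 18.6, 1.15 and 2.11 in 1X cytokine, 24.9, 27.7 and 23.1 in 2X PBS and 1.07, 2.28 and 0 in 2X cytokine. It was at or under 3 counts in 4 libraries. Its log2 fold change in 2X was -4.56 (SE 0.43, adjusted p = 3.83e-05) by edgeR, with adjusted p = 0.377 in the fit of all 12.

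The balance of the monocyte receptor to the neutrophil receptor varied among the 6 higher libraries. Ccr2 made up 11.2% (8.95 to 13.8) of the counts of Ccr2 and Csf3r in 1X cytokine replicate 1, 18.2% (16.2 to 20.4) and 18.8% (17.0 to 20.7) in 1X PBS replicates 2 and 3, and 18.0% (14.0 to 22.6), 28.2% (24.5 to 32.2) and 23.8% (19.3 to 28.8) in 2X PBS, with exact 95% intervals for counting error. The interval of 1X cytokine replicate 1 lies below those of the other 5, which come from other labels. The share of Lyz2 in the counts of Lyz2, S100a8 and S100a9 ran from 49.6% (47.5 to 51.6) in 1X cytokine replicate 1 to 67.1% (65.9 to 68.2) in 1X PBS replicate 2. It was again lowest in 1X cytokine replicate 1 among these 6.

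Chil3, a chitinase-like protein of monocytes and neutrophil precursors, had 0.761, 112 and 90.7 CPM in the 1X PBS libraries, 21.1, 0.384 and 0.549 in 1X cytokine, 20.7, 20.4 and 14.5 in 2X PBS and 16.8, 1.51 and 0.600 in 2X cytokine. In 2X cytokine it was high in replicate 1 only, inside the range of 2X PBS, and it was not called there at -1.59 (SE 0.64, adjusted p = 0.173) by edgeR. Its near copy Chil4 had 0 counts in all 12 libraries. Ly6c2, a surface protein of classical monocytes, had 0, 34 and 59 counts in the 1X PBS libraries, 16, 0 and 3 in 1X cytokine, 15, 41 and 22 in 2X PBS and 14, 2 and 0 in 2X cytokine, with a log2 fold change in 2X of -1.84 (SE 0.69, adjusted p = 0.143) by edgeR. Its close copy Ly6c1, which endothelial cells express, shares sequence with it, so the split of counts between them is uncertain. Ly6c2 took 71.4% (47.8 to 88.7), 64.1% (51.1 to 75.7) and 59.5% (42.1 to 75.2) of the counts of both in 2X PBS and 40.5% (29.9 to 51.7) and 37.8% (30.2 to 45.9) in 1X PBS replicates 2 and 3.

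The other monocyte genes were sparse. Plac8 had 3, 41 and 73 counts in the 1X PBS libraries, 9, 0 and 2 in 1X cytokine, 7, 19 and 26 in 2X PBS and 4, 1 and 0 in 2X cytokine, and passed the filter in the fit of 12 libraries but not in that of 6. Ms4a6c, a membrane gene of monocytes with the near copies Ms4a6b and Ms4a6d, had 0, 112 and 85 counts in the 1X PBS libraries, 28, 0 and 1 in 1X cytokine, 13, 52 and 21 in 2X PBS and 0, 0 and 2 in 2X cytokine. In 2X its 87 counts in PBS faced 2 in cytokine, a ratio of 33.5 with a counting interval of 8.99 to 281. Fcgr4, a receptor for antibody that marks non-classical monocytes, had 69 counts in 2X PBS against 3 in 2X cytokine, a ratio of 17.7 (5.81 to 87.9). F10, the gene of coagulation factor X, had 24 against 1, a ratio of 18.5 (3.01 to 760.0). For these 4 genes every 2X PBS library lay above every 2X cytokine library.

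The integrin genes encode the α chains of Mac-1 (Itgam, also made by microglia) and LFA-1 (Itgal, of all leukocytes). Itgam had 17.1, 109 and 102 CPM in the 1X PBS libraries, 28.3, 14.2 and 22.0 in 1X cytokine, 46.5, 44.4 and 39.1 in 2X PBS and 12.97, 20.02 and 10.0 in 2X cytokine. Itgal had 0.380, 24.1 and 35.5 CPM in the 1X PBS libraries, 12.3, 1.15 and 1.10 in 1X cytokine, 10.6, 7.22 and 7.40 in 2X PBS and 2.14, 0.754 and 0 in 2X cytokine. Itgam stayed above 10 CPM in every library and Itgal reached 0. In 2X the groups were apart for both genes, with log2 fold changes of -1.61 (SE 0.21, adjusted p = 0.000442) and -3.10 (SE 0.60, adjusted p = 0.00716) by edgeR. Neither was called in edgeR's fit of all 12 libraries (adjusted p = 0.427 and 0.496). Microglia genes, which could carry Itgam, summed to 923 to 1287 CPM in the 2X PBS libraries and 508 to 976 in those of 2X cytokine. Tmem119 had 52.5, 64.1 and 57.4 against 46.8, 43.7 and 26.4 CPM in these groups and P2ry12 14.4, 23.9 and 20.4 against 28.6, 39.2 and 23.4. Of 17 microglia genes tested in the 6 libraries 6 were called, all lower in 2X cytokine, against 5.31% of all genes called lower. Their part in the Itgam result was not tested.

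The macrophage genes were sparse. Clec7a, the receptor Dectin-1 for fungal glucans, had 3.42, 58.2 and 60.2 CPM in the 1X PBS libraries, 26.1, 0.795 and 0.549 in 1X cytokine, 19.0, 21.5 and 24.7 in 2X PBS and 1.79, 1.53 and 0.300 in 2X cytokine. Its groups did not overlap in 2X, with a log2 fold change of -4.20 (SE 0.36, adjusted p = 1.91e-05) by edgeR. Msr1, a scavenger receptor, had 0, 49 and 65 counts in the 1X PBS libraries, 15, 3 and 0 in 1X cytokine, 17, 34 and 13 in 2X PBS and 0, 0 and 0 in 2X cytokine. All 3 libraries of 2X cytokine were at 0, so that 2X cytokine was at least 16.4-fold lower, taking a floor of 3 counts over the group. Mrc1, the mannose receptor of border macrophages, had 5, 48 and 46 counts in the 1X PBS libraries, 4, 3 and 5 in 1X cytokine, 11, 27 and 26 in 2X PBS and 3, 2 and 2 in 2X cytokine, with a log2 fold change in 2X of -2.77 (SE 0.49, adjusted p = 0.00394) by edgeR.

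Ms4a7 had 2, 16 and 26 counts in the 1X PBS libraries, 5, 1 and 0 in 1X cytokine, 4, 11 and 5 in 2X PBS and 5, 2 and 0 in 2X cytokine and Pf4, a chemokine of border macrophages and platelets, 2, 9 and 6 counts in the 1X PBS libraries, 0, 2 and 0 in 1X cytokine, 6, 8 and 7 in 2X PBS and 3, 0 and 3 in 2X cytokine, and neither passed the filter. The Ms4a7 groups overlapped in 2X, and for Pf4 each 2X PBS library lay above each 2X cytokine library, on 8 counts or fewer. Platelet genes summed to 6.09 to 17.9 CPM over the 12 libraries, and their part in the Pf4 values was not tested. The platelet gene Ppbp had at most 5 counts in a library, and Gp9 at most 5. Border macrophage genes outside the set gave 51.9 to 72.7 CPM in the 2X PBS libraries and 35.1 to 51.5 in those of 2X cytokine, with Cd163 at 3.10, 3.91 and 3.51 against 1.93, 5.61 and 1.86 and Lyve1 at 0, 1.41 and 1.48 against 0.714, 3.01 and 0.300. Of 6 such genes tested in the 6 libraries 2 were called, both lower in 2X cytokine, against 5.31% of all genes called lower.

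Between schedules, members were compared in 3 ways that share libraries with the comparisons above. With all 12 libraries 0 of 27 members were called for 2X cytokine against 1X cytokine (0.0276% of all genes called), 0 for 2X PBS against 1X PBS (0.0%) and 0 for the difference between the 2X and 1X cytokine responses (0.0%). At an unadjusted p under 0.05 there were 3, 0 and 0 members by edgeR, where all genes gave 1015, 914 and 754 of 14490, so that the 3 of 27 are near the share of all genes. DESeq2 called 0 members in each. The members' medians were -2.54, -1.30 and -1.23, with 18 of 27 negative for the difference between responses. Without both 1X replicate 1 libraries, a choice that is not independent of the outcome, these values moved and are given as a description. Of 28 members 0 passed the threshold for 2X against 1X cytokine, against 0.0202% of all genes, and the median turned to 0.85. In 2X PBS against 1X PBS 20 were lower, against 8.47% of all genes, with a median of -1.81. For the difference between responses 11 were higher, against 3.21% of all genes, and the direction of the members reversed, with a median of 2.39 and 26 of 28 positive. These 11 were Mmp8, Mmp9, Cxcr2, Hdc, Il1b, Csf3r, Clec4e, Chil3, S100a8, S100a9 and Lyz2.

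Lists of other cells were measured in the same libraries. Their counts of calls in 2X stand against 5.31% of all genes called lower, and cover only genes that passed the filter, which a gene can pass through the group where it is high. Pan-leukocyte genes, led by Ptprc, Coro1a and Cd52, summed to 169, 2184 and 2238 CPM in the 1X PBS libraries, 848, 236 and 254 in 1X cytokine, 833, 815 and 801 in 2X PBS and 235, 242 and 115 in 2X cytokine. The fit of 6 libraries called 16 of 17 of them lower in 2X cytokine. Ptprc, which encodes CD45, had 4.94, 121 and 139 CPM in the 1X PBS libraries, 46.2, 4.61 and 7.14 in 1X cytokine, 43.2, 41.4 and 34.0 in 2X PBS and 6.07, 5.65 and 1.50 in 2X cytokine. It was highest in the 6 libraries named above. Of the 24 other neutrophil genes only 5 passed the filter in the 6 libraries of 2X, and all 5 were called lower in 2X cytokine. Of the 17 other monocyte genes 11 passed it and 5 were called lower. The other monocyte genes summed to 2047, 1776 and 1986 CPM in the 2X PBS libraries and 1665, 1843 and 1370.4 in those of 2X cytokine, which overlap. This list also had 1256, 1772 and 1139 CPM in 1X PBS replicate 1 and 1X cytokine replicates 2 and 3. The monocyte genes described here had 28.1, 30.0 and 26.8 there, so that much of the list's sum stands where they are low. The other neutrophil genes summed to 1100 to 1697 CPM in the 2X PBS libraries and 71.4 to 127 in those of 2X cytokine. Most of this came from Lcn2 and Chil1, which astrocytes also make. Without these genes the sums were 88.3 to 126 CPM in the 2X PBS libraries and 8.42 to 27.5 in those of 2X cytokine. Ly6g, the surface marker used to define mouse neutrophils, had 0, 9 and 10 counts in the 1X PBS libraries, 7, 0 and 0 in 1X cytokine, 2, 1 and 1 in 2X PBS and 0, 1 and 2 in 2X cytokine. T and NK cell genes summed to 1.93 to 11.6 CPM over the 12 libraries, B cell genes to 3.00 to 23.7 and dendritic cell genes to 11.2 to 29.0, with Cd3e at no more than 2 counts in a library. Oligodendrocyte genes were higher in 2X cytokine, at 5772, 6309 and 5228 CPM against 3901, 3031 and 2662 in 2X PBS, with no overlap of the sums. The fit of 6 libraries called 5 of 6 of them higher, against 2.43% of all genes called higher. Endothelial genes were high in 1X PBS replicates 2 and 3 and 1X cytokine replicate 1, at 142, 186 and 124 CPM, and between 45.7 and 68.0 in the other 3 libraries of 1X. Choroid plexus genes had 26489, 26967 and 28574 CPM in the same 3 libraries, and 8554 to 21352 in the other 3 of 1X. In 2X they had 14617, 13596 and 15741 CPM under PBS and 3829.5, 7706 and 14368 under cytokine. The part of these cells in the results was not tested.

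Signals that recruit these cells were measured in the same libraries. Of 15 genes for chemokines, growth factors and adhesion molecules 9 passed the filter in the 6 libraries of 2X fitted alone, the alternative to the main test. All 9 were called lower in 2X cytokine there, against 5.31% of all genes. A gene can pass the filter through the group where it is high, so the calls describe these 9 and not all 15. The other 6 had at most 6 counts in a 2X library. Cxcl1, a ligand of CXCR2, had 54.2, 59.9 and 60.7 CPM in the 2X PBS libraries and 19.99, 19.6 and 11.1 in those of 2X cytokine. Cxcl5, another, had 40.8, 25.1 and 33.7 against 1.84, 3.05 and 3.48, and Cxcl2, which neutrophils also make, 67.7, 47.7 and 54.4 against 4.64, 3.77 and 1.50. The CCR2 ligand gene Ccl7 had 13.5, 10.7 and 11.8 and 2.14, 0.377 and 1.80 CPM, and Csf3, the gene of G-CSF, at most 9 counts in a library. Icam1, to which both integrins bind, had 39.8, 148 and 148 CPM in the 1X PBS libraries, 91.6, 44.3 and 35.8 in 1X cytokine, 73.0, 56.9 and 77.6 in 2X PBS and 46.8, 30.8 and 29.2 in 2X cytokine.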

How the data were processed

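RNA of 12 libraries of sorted astrocytes was measured after SMART-Seq2, and the submitters assigned reads to the GRCm38 transcriptome with kallisto 0.46.1, per the labels' protocols. The deposited estimated counts are not normalised, and the deposited TPM values are scaled by the authors to a common sum. Estimated counts of 142604 transcripts were summed to 55401 genes and rounded. The sources used here do not say how strand was used, and near-identical copies are uncertain. Totals were 1878131 to 5521300 counts. PCR copies are not separated from molecules, so intervals (95%) and the floor of 3 counts hold for counting error alone. Nothing in the labels says that libraries are separate animals. The p-values then measure only how these libraries vary, possibly for technical reasons.

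Tests across genes used edgeR 4.0.16 (R 4.3.3) with filterByExpr, TMM, quasi-likelihood F test, 1 coefficient for each label, 14490 genes in the fit of 12 libraries, Benjamini-Hochberg adjustment, threshold 0.05. The code was tested on simulated counts. Standard errors are the log2 fold change over the root of F. Alternatives were RLE scaling, no filter, DESeq2 1.42.0, voom with quality weights and limma-trend on log2(TPM + 1) for a mean TPM of at least 1 (limma 3.58.1), a block for the replicate number, fits of only the compared libraries, and fits without 1 library or without both 1X replicate 1 libraries. The 31 members and the lists were chosen with earlier results of these data known. The naming rule takes every member and, of each other list, its first 3 genes and the 4 of highest mean TPM, and any recruitment gene or close copy. Spi1, Cebpe and Elane were named outside it, after their values were seen. Positions are GENCODE M21 on GRCm38 and promoters RefSeq on GRCm38.p6.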

Additional observations from a re-analysis of the deposited data

How the results depend on the processing

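The fit of 12 libraries called 0 members in each of the 5 comparisons. RLE scaling, limma-trend and the replicate block also called 0 in each. Without a low count filter the calls were 10 in 1X cytokine against 1X PBS (0.748% of all genes called), 20 in 2X cytokine against 2X PBS (1.37%), 1 of them higher, and 8 in 2X against 1X cytokine (0.575%). Voom with quality weights gave 6 in 1X (12.3% of all genes), 2 in 2X (3.13%) and 11 in 2X PBS against 1X PBS (18.6%), of which the 2 of 27 are near the share of all genes. DESeq2 gave 1 in 2X (0.256%). The 6 libraries of 2X alone gave 19 of 24, all lower (5.31% of all genes called lower). The compared libraries alone gave 0 of 23 in 1X cytokine against 1X PBS and 0 of 8 in 2X against 1X cytokine. In 2X PBS against 1X PBS they gave 0 of 24, and each of these 3 fits called 0 genes in all. The 6 libraries of 2X without each in turn, a setting chosen after seeing the data, gave 18 to 23 (3.51 to 4.79% of all genes called lower). Without both 1X replicate 1 libraries the calls were 26 in 1X, 21 in 2X, 20 in 2X PBS against 1X PBS and 11 in the difference between responses, a choice of libraries that is not independent of the outcome. Leaving out 1 library gave 0 to 10 calls in 1X, 0 to 4 in 2X and 0 to 1 in 2X PBS against 1X PBS, the highest each time without 1X PBS replicate 1, and 0 to 0 in the other 2 comparisons. Without that library the shares of all genes called were 7.55% in 1X, 0.827% in 2X and 7.39% in 2X PBS against 1X PBS. The 1 of 28 members in the last comparison lies below the share of all genes.

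With the replicate block, all genes called in 2X went from 5 to 2. Correlations of same-numbered libraries, on deviations from the mean of their label, ran from -0.623 to 0.163. In 1X these deviations are shaped by both replicate 1 libraries, which stand apart from their labels. The correlations therefore cannot decide whether the numbers pair libraries.

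Direction changed for 3 genes. Ngp in 1X was -0.30 with voom and -0.52 without both replicate 1 libraries, and from -0.29 (without 1X cytokine replicate 1) to 1.35 with 1 library left out. Ltf in 1X was 0.59 with limma-trend and from -0.66 to 0.60 with 1 library left out, positive without 1X PBS replicate 3 or 1X cytokine replicate 2. Ltf in 2X ran from -0.44 (without 2X cytokine replicate 1; -0.54 with the other 5 libraries alone) to 3.02, and Mmp8 from -1.90 (without the same library) to 2.65. The cause was not tested. Among single members in 1X, 51 alternative values passed the threshold that the fit of 12 did not, 477 did not pass it and 6 changed direction. In 2X these counts were 183, 495 and 3. The alternatives share most of their libraries, and those of 2X include the fits chosen after seeing the data. These values are therefore not separate results. In the other 3 comparisons 49 of 519, 20 of 535 and 80 of 511 alternative values changed sign, and no single value of theirs is given.

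The highest genes of the neutrophil, monocyte and macrophage sums were Il1b, Lyz2 and Clec7a. Without them the 2X PBS sums were 508, 70.7 and 15.1 CPM, and those of 2X cytokine 130, 10.7 and 2.38. Leaving out each library in turn, the mean sum ran for neutrophil genes from 1331 to 2732 in 1X PBS, from 60.4 to 612 in 1X cytokine, from 605 to 707 in 2X PBS, from 85.8 to 174 in 2X cytokine. For monocyte genes it ran from 691 to 1429 in 1X PBS, from 28.4 to 187 in 1X cytokine, from 371 to 381 in 2X PBS, from 19.5 to 54.9 in 2X cytokine. For macrophage genes it ran from 49.4 to 92.6 in 1X PBS, from 3.77 to 18.1 in 1X cytokine, from 35.4 to 37.6 in 2X PBS, from 2.51 to 4.48 in 2X cytokine.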
